A study of Homo sapiens with 4 samples.

Results

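The genes described here encode chromatin remodelers and histone-modifying enzymes, taken from a list of RNA regions recovered with PRMT5. A gene was a member if its protein-coding symbol started with SMARC, ARID, KDM, KMT2, KMT5, SETD or HDAC, or with CHD and a digit, or was EZH1, EZH2, EED, SUZ12, DNMT1, DNMT3A, DNMT3B, EP300 or CREBBP. Of 94 symbols that fit, 60 had at least 1 peak, out of 8478 genes in the whole list, and they carried 162 of its 18993 peaks. For comparison, 5526 of 15842 protein-coding genes with an annotated start had a peak under their name, and 55 of the members had such a start. The rule uses no measured value.

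PRMT5 is an arginine methyltransferase that works in a complex with WDR77, and the sequenced RIP addressed which RNAs are recovered with PRMT5 in T cells. All groups were made from Jurkat, an established line of human leukemic T cells, after 48 hours of PHA stimulation and UV crosslinking (264 nm and 400 mJ in the sample labels). RNA recovered by FLAG immunoprecipitation of PRMT5 (RIP) was sequenced as 2 libraries and input RNA from the lysate as 2 libraries, all of them from cells with the same treatment. FLAG is a protein tag, and the study's RIP methods list antibodies against both PRMT5 and FLAG. Whether tagged or endogenous PRMT5 was recovered is not settled here. The deposited list joins the 4 libraries and gives each peak a single value per group in RPM (reads scaled to library size), rounded to 0.01, so neither the spread between libraries nor the depth of a library is known, and no test between RIP and input was possible here. The only error that could be given is the rounding of the RPM values, which does not cover the spread between libraries.

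SWI/SNF complexes, the ISWI ATPases and the CHD proteins use ATP to slide, eject or exchange nucleosomes. Methyltransferases, acetyltransferases, demethylases and deacetylases add or remove small groups on histone tails, which other proteins then read, and DNA methyltransferases mark cytosines. In T cells these enzymes take part in opening and closing genes during activation, effector differentiation and exhaustion, and several of them are recurrently mutated in leukemia. The values below concern their mRNAs in the PRMT5 RIP, not the proteins.

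All 8 T cell markers looked up (CD3D, CD3E, CD3G, CD247, CD2, LCK, ZAP70 and BCL11B) had peaks in the list, as did 2 of 6 markers of B cells or myeloid cells (CD79A and CSF1R). Summed over the whole list, RPM was higher in RIP than in input by 0.63 on the log2 scale. A positive ratio was the common case for listed genes, whose peaks a peak caller had selected in a comparison of RIP with input. A high share of genes above input is therefore at least in part set by how the list was made. The libraries are bulk RNA, in which fewer cells with an RNA and less RNA per cell cannot be told apart.

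Many of the peaks lay at the start of a gene, and the sequences under 7 of them are shown because these peaks ran from high values (ARID1A, SMARCD2, SETD3 and KDM1A) to low ones (SMARCB1 and HDAC1) and to one below input (SMARCE1). Each is the part of the first 50 transcribed bases that the peak covered, up to 30 bases, read 5′ to 3′ on the strand of the gene from RefSeq (GRCh38.p14), and capitals mark runs of at least 5 G or C letters. The start shown for SETD3 is an annotated one inside the gene. The peaks were 225 nt wide in SMARCD2, 2672 nt in ARID1A, mostly before the start, and 11121 nt (KDM1A) to 36962 nt (HDAC1) in the rest. Their ratios are those of the whole peaks, not of the bases shown.
ARID1A, chr1:26696015-26696044, plus strand: ctcctttctCCGGCagcagaaagcggagag
SMARCD2, chr17:63842653-63842682, minus strand: acggagcgatgtCGGGCCGaGGCGCGGGCG
SETD3, chr14:99480815-99480844, minus strand: ccctcccgtCCGGCCGCCGCCGCCGCCacc
KDM1A, chr1:23019493-23019517, plus strand: GGCGGCGCGCGGGCagcgtgaagcg
SMARCB1, chr22:23786981-23787010, plus strand: ctgaGGGCGGCCtggtcgtcgtctGCGGCG
HDAC1, chr1:32292108-32292132, plus strand: agcggaGCCGCGGGCGGGaGGGCGG
SMARCE1, chr17:40647789-40647818, minus strand: caaagggaagcgaaGCCGGagctGCGGGCG
The starts were rich in G and C in both kinds. The share of G and C in the first 50 bases was 66% in ARID1A and 82% in SMARCD2, and 80% in SMARCB1 and 84% in HDAC1. Over the 55 members with a start in the RefSeq table the median was 70%, against 68% over 5526 named protein-coding genes with a peak and 64% over 15842 protein-coding genes. Across the 37 members with a peak at the start, this share had a rank correlation (Spearman's rho) of 0.05 with the log2 ratio of that peak, and across 4503 named protein-coding genes it was 0.19. The points share libraries and base composition, and the value is a description.

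Each gene was given 1 value, the median over its peaks of the log2 ratio of RIP RPM to input RPM (0.01 RPM added to both), and at least 2-fold means a value of 1 or more. By this measure 40 of 60 members (66.7%) were at least 2-fold higher in RIP, against 61.9% of all listed genes, and their median was 1.23 (1.17 to 1.29 if every RPM value is moved by its rounding), against 1.20 for all genes. By peaks, 97 of 162 (59.9%) were at least 2-fold higher, against 55.7% of all peaks. As a group the members lay near the level of the list, while single members differed widely. Their values ran from 0.05 in SMARCE1 to 3.03 in KDM3B. Values below 0 were rare in the whole list (199 of 8478 genes), and no member had one, which is no contrast with the list. The value of SMARCE1 is that of a peak shared with another gene, and over its 4 peaks with 1 identifier the median was -0.08.

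Of the 4 main roles, histone demethylases had the highest values and SWI/SNF subunits and deacetylases the lowest. The median gene value was 1.55 over 12 demethylases, 1.36 over 13 methyltransferases, 1.14 over 9 deacetylases and 1.10 over 10 SWI/SNF genes. At least 2-fold were 10 of 12 demethylases (83.3%), 10 of 13 methyltransferases (76.9%), 5 of 9 deacetylases (55.6%) and 6 of 10 SWI/SNF genes (60.0%). The share over all listed genes was 61.9%, near that of deacetylases and SWI/SNF genes. The ranges overlapped in every pair of roles, and no role's difference from another could be tested. The groups also differed in reads. The median of the input RPM summed over a gene's peaks was 0.28 for demethylases and 0.19 for methyltransferases, and 1.43 for deacetylases and 7.88 for SWI/SNF genes. With 1 RPM added in place of 0.01 the order changed, to 0.75 for SWI/SNF, 0.38 for methyltransferases, 0.36 for demethylases and 0.21 for deacetylases.

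**Figure D1:**
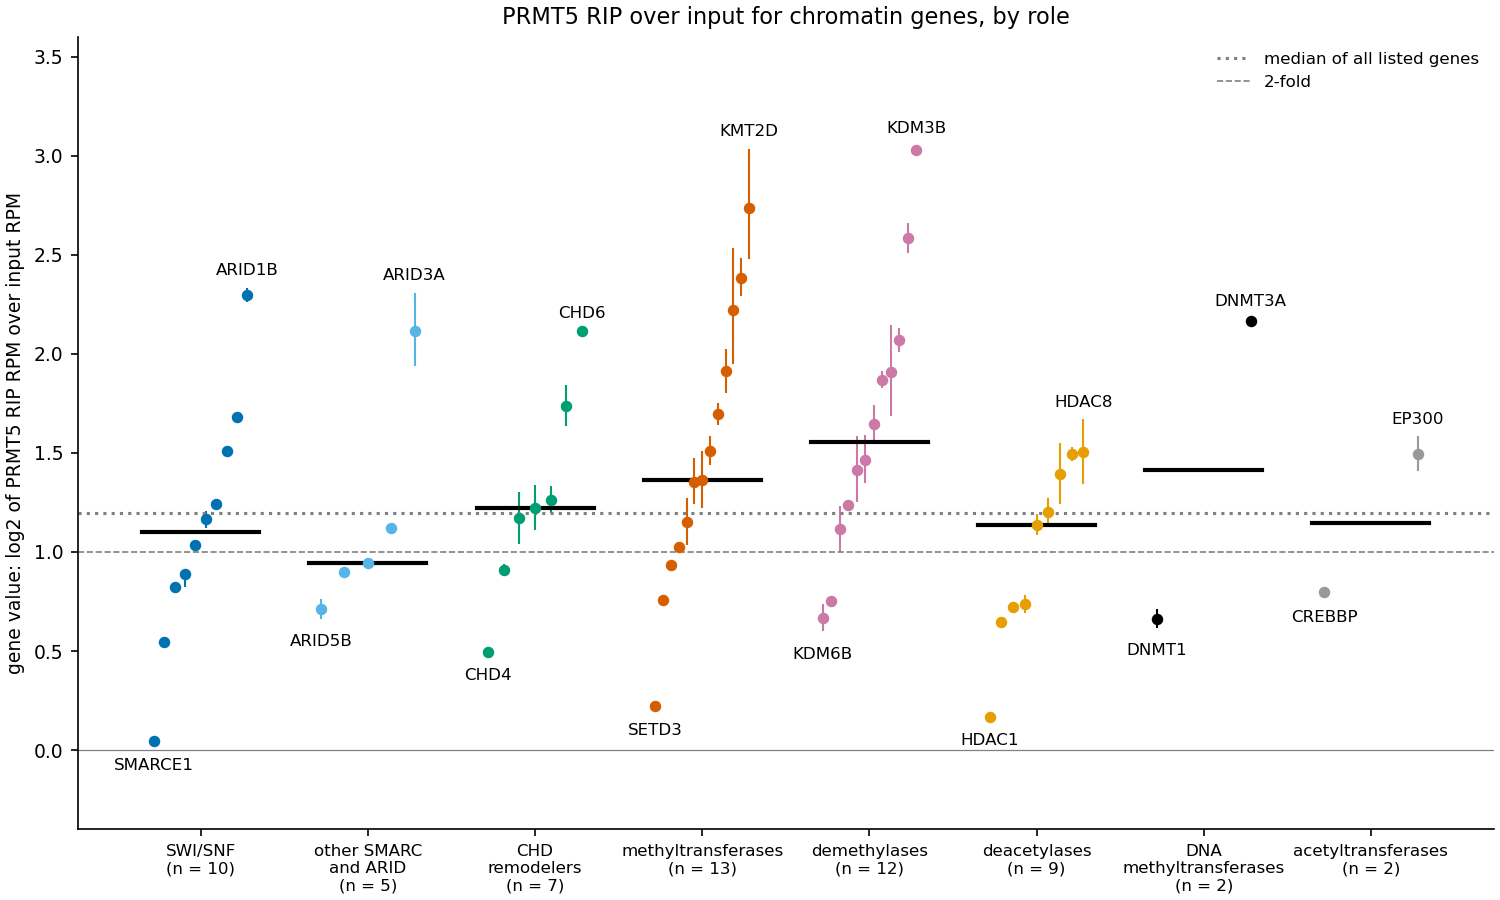
Each point is 1 of the 60 genes, placed by its role on the horizontal axis and by its gene value, the log2 ratio of PRMT5 RIP RPM to input RPM, on the vertical axis. Bars span the rounding of the RPM values, black lines are the medians of the roles, and the highest and lowest gene of each role are named, from KDM3B at 3.03 to SMARCE1 at 0.05.

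Of the SWI/SNF subunits, SMARCA4, SMARCB1, SMARCC1, SMARCC2, SMARCD1, SMARCD2, SMARCD3, SMARCE1, ARID1A and ARID1B had peaks, and SMARCA2 and ARID2 had none assigned. The highest by gene value were the large DNA-binding ARID subunits that define the BAF form of the complex. ARID1B had 3 peaks with 3.24 RPM in RIP and 0.66 in input in sum, and a gene value of 2.30. ARID1A (ENSG00000117713), a frequent tumor suppressor, had 36.43 RPM in RIP and 15.53 in input over 4 peaks, and a gene value of 1.68, or 1.23 from the summed RPM. SMARCD1, an accessory subunit that links the complex to transcription factors, had 1 peak over its start with 8.76 RPM in RIP and 3.07 in input (1.51). By gene value, all of these were above the median of the list.

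The ARID1A value joined unlike peaks. The peak over the start (chr1:26693611-26696282, GRCh38), 2672 nt wide, lay mostly before the annotated start at 26696015 and ended 267 nt after it. It had 5.89 RPM in RIP and 0.84 in input, and the next peak, inside the gene, had 14.64 and 2.20. Their log2 ratios were 2.80 and 2.73. The later pair, farther inside the gene, had 8.81 and 5.67 RPM and 7.09 and 6.82 RPM, with ratios of 0.63 and 0.06. The RIP and input reads were thus far apart near the start and close to each other at the last listed peak, and no peak was listed farther along.

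SMARCA4, the ATPase that drives the complex, had the most peaks of any member, 10, with 16.72 RPM in RIP and 9.42 in input in sum and a gene value of 0.89. Its peaks ranged from 0.17 to 1.69, and the 2 highest lay inside the gene, with 2.38 RPM against 0.73, in a peak shared with another identifier, and 0.51 against 0.16. The scaffold subunits SMARCC1 and SMARCC2, which hold the core together, had gene values of 1.03 and 1.17 from 4 peaks each. SMARCD3, another accessory subunit, was at 1.24, with 3.08 at its first peak (0.58 RPM in RIP, 0.06 in input) and 0.28 at its last. SMARCB1, the core subunit lost in rhabdoid tumors, had the most input reads of all members, 68.64 RPM, with 123.13 in RIP, and a gene value of 0.82.

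The other end of the SWI/SNF range was taken by SMARCD2 and SMARCE1, in which single peaks were nonetheless high. SMARCD2, a paralog of SMARCD1 needed for granulocyte development, had a gene value of 0.54. Its first peak (6.02 RPM in RIP, 0.93 in input) was at 2.68 and the next (9.89 and 3.29) at 1.58, while the other 4, of 25 to 125 nt, were between 0.14 and 0.59. With RPM summed over its peaks SMARCD2 came to 1.57, so its low gene value came from the number of small peaks. SMARCE1 (ENSG00000073584), the HMG-box subunit, had the lowest gene value of all members, 0.05, from 7 peaks. The widest, 11321 nt from its start on (chr17:40636517-40647837), had 16.10 RPM in RIP and 17.95 in input, a ratio of -0.16, and lay over 2 further peaks at 0.00 and -0.16. A peak of 175 nt before the RefSeq start, which also overlapped a listed peak of the other strand, was at 2.98 (1.25 against 0.15 RPM). The last 3 peaks, at 0.05 (1.60 against 1.55), 4.20 (1.46 against 0.07) and 2.35 (7.09 against 1.38), carried a second gene identifier, so their reads cannot be given to SMARCE1 alone.

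The remaining SMARC and ARID genes with a peak were SMARCA5, ARID3A, ARID4B, ARID5A and ARID5B. At least 2-fold were 2 of these 5, against 61.9% of all listed genes. ARID3A, a DNA-binding factor first studied in B cells, was the highest at 2.11, and all 6 of its peaks were between 1.46 and 2.65. SMARCA5, the ISWI ATPase that spaces nucleosomes, had 19.84 RPM in RIP and 7.94 in input in a peak from its start on (1.32) and 4.78 and 3.43 in a second one (0.48). ARID5A, an RNA-binding protein that stabilizes cytokine mRNAs, was at 1.12. ARID4B, a subunit of the SIN3 corepressor, was at 0.94, and ARID5B, a partner of a histone demethylase and a leukemia susceptibility gene, at 0.71.

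Of the CHD remodelers, CHD1, CHD1L, CHD2, CHD3, CHD4, CHD6 and CHD8 had peaks. At least 2-fold were 5 of these 7, against 61.9% of all listed genes. CHD6 had 1 wide peak of 20581 nt with 19.74 RPM in RIP and 4.55 in input, a value of 2.11, the second highest among members with at least 1 RPM in input. CHD3 and CHD4, ATPases of the NuRD corepressor, stood apart from each other. CHD3 was at 1.74, with all 5 peaks between 1.12 and 2.91, the highest of them overlapping a peak on the other strand, and CHD4 at 0.49, with 10.61 RPM in RIP and 7.53 in input at its only assigned peak, which also named a second gene. Another peak that named CHD4 second had 23.14 and 20.87 RPM (0.15), so it was low as well. CHD1 at 1.26, CHD8 at 1.22 and CHD2 at 1.17 each rested on 1 peak with at most 0.14 RPM in input, and CHD1L, which acts in DNA repair, was at 0.91.

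In the methyltransferase group, which was set by symbol, KMT2B, KMT2C, KMT2D, KMT5A, KMT5C, SETD2, SETD3, SETD5, SETD7, SETDB1 and EZH2 had a peak. So did EED and SUZ12, the noncatalytic core of Polycomb repressive complex 2 (PRC2). The highest values came from the fewest reads. KMT2D, an enhancer methyltransferase, had 0.19 RPM in RIP and 0.02 in input in a 25-nt peak and a value of 2.74, between 2.48 and 3.04 with rounding. KMT2C, its paralog, had 0.13 and 0.02 (2.22, rounding 1.95 to 2.54) in a peak that lay wholly before its start and overlapped one on the other strand. KMT2B, of the same family, was at 1.36 (0.17 and 0.06).

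The core members of PRC2, which writes the repressive Polycomb mark, differed. SUZ12 was at 2.38 (0.46 RPM in RIP, 0.08 in input), EED at 0.94 (3.47 and 1.81) and EZH2, the catalytic subunit, at 0.76 (5.37 and 3.10 over 4 peaks). EZH2 began with 1.56 at the start and was between 0.22 and 0.93 at the later peaks. SETD2, the methyltransferase that travels with elongating polymerase, was at 1.91, SETD7 at 1.69, SETD5 at 1.51, KMT5A, which monomethylates histone H4, at 1.36, SETDB1, the silencer of endogenous retroviruses, at 1.15, and KMT5C at 1.02. The lowest was SETD3, an actin histidine methyltransferase, at 0.22. Its first peak (chr14, 2.31 RPM in RIP against 0.52) was at 2.13, and the later ones, with 3.23 against 3.11 and 1.66 against 1.42, were at 0.05 and 0.22.

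The demethylases with a peak were KDM1A, KDM1B, KDM2A, KDM2B, KDM3B, KDM4B, KDM4C, KDM5A, KDM5B, KDM5C, KDM6A and KDM6B. KDM3B (ENSG00000120733), a Jumonji demethylase that removes repressive methylation, was the highest of all members at 3.03. It had 1 peak of 19961 nt from 75 nt after its start, with 2.93 RPM in RIP and 0.35 in input, which placed it at percentile 98.4 of all listed genes. KDM6A, on the X chromosome, was at 2.58 (1.37 and 0.21 RPM), with its first peak at 3.27. KDM1B was at 2.07 (0.62 and 0.14). These were followed by KDM4C at 1.91, with 0.14 against 0.03 RPM in a single 25-nt peak just before an annotated start inside the gene.

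KDM1A, the flavin-dependent demethylase of the CoREST complex, gave the most RIP reads of the demethylases. It had 17.23 RPM in RIP and 4.23 in input and a value of 1.87, nearly all of it from an 11121-nt peak at its start (16.88 and 4.13). The KDM5 genes, which remove an active promoter mark, were at 1.64 for KDM5A, 1.24 for KDM5B (4.63 and 1.96 RPM) and 1.12 for KDM5C, the last with a rounding range of 1.00 to 1.23. KDM2B, which guides a Polycomb complex to unmethylated CpG islands, was at 1.47 from 6 peaks and KDM2A at 1.42. Below 2-fold were KDM4B at 0.75, with 2.08 at its start and 0.55 to 0.82 at 3 later peaks, and KDM6B, which is induced on activation in many immune cells, at 0.67 (0.26 and 0.16 RPM).

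The deacetylases with a peak were HDAC1, HDAC2, HDAC3, HDAC4, HDAC5, HDAC6, HDAC7, HDAC8 and HDAC10, and the highest of them was only somewhat above the median of the list. HDAC8 was at 1.50 (0.16 RPM in RIP, 0.05 in input, at 1 peak that also named a second gene), HDAC5 at 1.49 (0.75 and 0.26) and HDAC6, mainly a tubulin deacetylase, at 1.39 (0.32 and 0.11). HDAC7, a class II enzyme expressed in thymocytes, was at 1.20 and HDAC10, a polyamine deacetylase, at 1.14. The nuclear class I enzymes of the corepressor complexes were lower. HDAC3 was at 0.74 (4.40 and 2.57), HDAC2 at 0.72 (19.08 and 11.02) and HDAC1 (ENSG00000116478) at 0.17 (50.08 and 35.27). HDAC4 was at 0.65 (18.66 and 11.51), most of it from a peak of 60234 nt. Another strand's peak lay over 8 of the 29 deacetylase peaks, in HDAC2, HDAC3 and HDAC10, and over 6 peaks of other members (ARID1B, ARID4B, CHD3, KMT2C, SMARCA5 and SMARCE1). How reads were given to strands in counting is not stated.

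Both DNA methyltransferases with a peak had many reads, and they lay far apart. DNMT3A, a de novo enzyme that silences naive and memory genes in effector T cells, was at 2.16 (7.24 RPM in RIP, 1.82 in input), the highest among members with at least 1 RPM in input, and its 3 peaks were between 1.62 and 2.36. DNMT1, which copies methylation at replication, was at 0.66 (25.90 and 13.57), with 7 peaks between 0.18 and 1.56. The acetyltransferases EP300 and CREBBP had 1 peak each, at 1.49 (0.30 and 0.10) and 0.80 (1.52 and 0.87).

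Closely related genes with a peak each were in part unlike and in part alike. ARID1B lay above ARID1A (2.30 and 1.68), HDAC2 above HDAC1 (0.72 and 0.17), EP300 above CREBBP (1.49 and 0.80) and KDM6A above KDM6B (2.58 and 0.67). In the first 3 of these pairs the gene with the higher value had fewer input reads, and in the last it had more, 0.21 against 0.16 RPM. SMARCC1 and SMARCC2 were close, at 1.03 and 1.17, and the 2.74 of KMT2D and 2.22 of KMT2C had overlapping rounding ranges. SMARCA4, EZH2, KMT2B and DNMT3A could not be compared with SMARCA2, EZH1, KMT2A and DNMT3B, which had no assigned peak.

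Over all 60 members, the ratio was lower where input reads were more frequent. Of 29 members with under 1 RPM in input, 26 (89.7%) were at least 2-fold, against 86.3% of 3000 listed genes in this range, and of 31 members with more, 14 (45.2%) were, against 48.6% of 5478. Spearman's rho between summed input RPM and gene value was -0.58 over the 60 members and -0.53 over the 8478 genes, as a description of points that share their input reads. Part of the relation is arithmetic, since the input value is in both axes. The peaks had also been selected by the peak caller, and whether this selection shaped the relation was not tested. Among members with at least 1 RPM in input the medians were 1.24 for 3 demethylases, 1.03 for 9 SWI/SNF genes, 0.94 for 5 methyltransferases and 0.73 for 6 deacetylases. Below 1 RPM they were 1.80 for 8 methyltransferases, 1.64 for 9 demethylases and 1.49 for 3 deacetylases, with ARID1B the only SWI/SNF gene. In this range 8 of 8 methyltransferases, 8 of 9 demethylases and 3 of 3 deacetylases were at least 2-fold, beside the 86.3% of all listed genes. Among the 4 main roles, deacetylases had the lowest median in both ranges. When instead single peaks under 0.5 RPM in input were left out, methyltransferases were lowest at 0.58, with deacetylases at 0.72.

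Peaks also differed along the genes. Members with several peaks numbered 36, and in 27 of them (75.0%) the first peak along the strand (5′) had a higher ratio than the last one (3′), against 69.7% of 4657 listed genes. The medians were 1.50 for the 5′ peaks and 0.99 for the 3′ peaks. The difference was largest in SMARCD3 (3.08 and 0.28), ARID1A (2.80 and 0.06), SMARCD2 (2.68 and 0.59) and SETD3 (2.13 and 0.22), and all of these have the higher peak at an annotated start. In ARID1A most of that peak lies before the start. By role the 5′ peak was higher in 7 of 9 SWI/SNF genes, 5 of 7 deacetylases, 4 of 6 methyltransferases and 4 of 6 demethylases.

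The opposite order was found in 9 members. HDAC4 had 0.10 at a 5′ peak of 47483 nt and 1.58 at its last, with 0.17 RPM against 0.05. HDAC7 had -0.10 at a 17279-nt peak that named a second gene and 1.09 at its last (1.90 and 0.89 RPM). KDM2B, KMT5C, DNMT3A, SMARCB1, KMT5A, KDM5A and SMARCC2 were the others. Among the 9 members in which both end peaks had at least 0.5 RPM in input, 6 had the higher ratio at the 5′ end, against 73.0% of 2053 genes chosen in the same way. When peaks under 0.5 RPM in input were left out before the end peaks were chosen, the majority turned: the 5′ peak was higher in 7 of 17 members (41.2%), against 71.7% of 2823 listed genes.

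Peaks were also measured from annotated starts, some of which lie inside a gene. Of 55 members with a start in the table, 37 (67.3%) had a peak over the first 500 nt after it, against 81.5% of named protein-coding genes, a lower share in the members. By role, such a peak was present in 7 of 8 SWI/SNF genes, 10 of 13 methyltransferases, 9 of 12 demethylases, 6 of 8 deacetylases and 2 of 6 CHD genes. Where present, these peaks had higher ratios. At least 2-fold were 37 of 48 peaks near the start (77.1%, against 71.3% for all named genes) and 47 of 98 other peaks (48.0%, against 44.6%), with medians of 1.47 and 0.94. Their median input RPM was alike, 0.35 and 0.31, and their median widths were 433 and 170 nt.

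In 24 members with peaks of both kinds, the median ratio near the start was higher than at the other peaks in 18, with a median difference of 0.79. This count was not made over all listed genes. In named protein-coding genes, too, peaks near a start were more often at least 2-fold (71.3% against 44.6%), so the pattern is not particular to the members. ARID1A (2.76 near the start, 0.35 elsewhere), SMARCD2 (2.68 and 0.49), SETD3 (2.13 and 0.14), KDM4B (2.08 and 0.68), CHD3 (2.91 and 1.56) and SMARCD3 (1.44 and 0.28) showed it with more than 1 log2 unit. SMARCE1 (-0.08 and 2.35) and HDAC7 (-0.10 and 1.32) showed the reverse by as much, and in both the peaks at the start included the wide one without an FDR in the list.

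**Figure D2:**
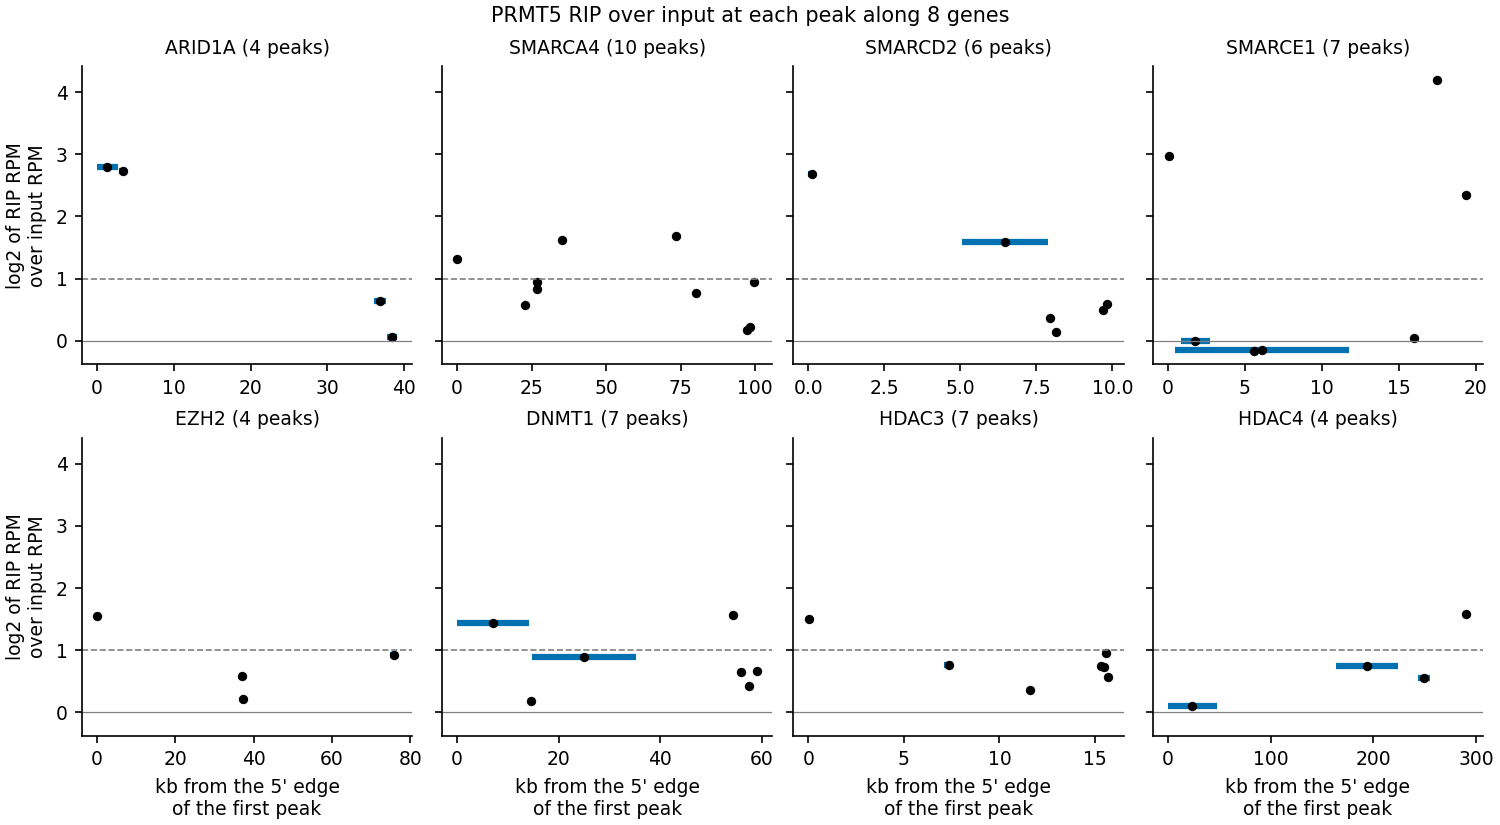
Each panel is 1 gene, with the distance in kb from the 5′ edge of its first peak on the horizontal axis and the log2 ratio of PRMT5 RIP RPM to input RPM on the vertical axis. Points are peak centers, blue bars the span of each peak, and the dashed line 2-fold. ARID1A, SMARCD2 and EZH2 start at or above 1.56 and are lower at every later peak. SMARCE1 is near 0 over the wide peak and at the next peak after it (0.05). It is high at its first peak (2.98) and at the last ones (4.20 and 2.35). All its peaks after the wide one carry a second gene identifier.

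The peaks themselves were uneven. Widths ran from 25 nt (30 peaks) to 60234 nt, with a median of 248 nt, and 24 were wider than 5000 nt, each given as an uninterrupted block that can include introns. The exons of the genes were not used here, so no peak is assigned to an exon, intron or UTR. In 34 peaks the input was under 0.1 RPM, and the rounding of RPM spanned up to 0.83 in log2 ratio at a single peak. The FDR of the peak caller was at or below 0.01 in 160 of the 162 peaks, which the caller had selected, and was missing in the wide peaks of SMARCE1 and HDAC7. The log2 fold change that the caller gives was higher than the RPM ratio at every peak that had one, by a median of 0.80, and its scaling is not stated. By that value 59 of 60 members were at least 2-fold, against 94.9% of all listed genes that had one.

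Other chromatin genes were described through a list of 86 symbols. The list held subunits of the members' complexes and also separate enzymes such as NSD2, ASH1L and SIRT1. Of the 86 genes, 60 had a peak. Their median was 1.28 and 44 of 60 (73.3%) were at least 2-fold, against 66.7% of the members and the 61.9% of the list. The highest with at least 1 RPM in input were SAP30, a SIN3 corepressor subunit (2.59, 7.94 RPM in RIP and 1.20 in input), BAZ1B, which pairs with SMARCA5 (2.23, 12.20 and 2.59), and BPTF, the large subunit of the NURF remodeler (2.15, 6.52 and 1.81). The lowest were NSD2, a methyltransferase activated in myeloma (0.13, 11.95 and 9.36), ASH1L (0.30, 14.82 and 12.13) and CXXC1, a CpG-binding subunit of the SET1 complex (0.50, 12.66 and 6.18). Their range from 0.13 to 2.79 lay within that of the members.

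The symbols without an assigned peak were ARID2, ARID3B, ARID3C, ARID4A, CHD5, CHD7, CHD9, CHD9NB, DNMT3B, EZH1, HDAC9, HDAC11, KDM3A, KDM4A, KDM4D, KDM4E, KDM4F, KDM5D, KDM7A, KDM8, KMT2A, KMT2E, KMT5B, SETD1A, SETD4, SETD6, SETD9, SETDB2, SETDB2-PHF11, SMARCA1, SMARCA2, SMARCAD1 and SMARCAL1. For SETD1B, 4 identifiers touched the gene and none could be chosen. Peaks were present for 10 of 12 SWI/SNF symbols, 9 of 11 deacetylases, 12 of 20 demethylases, 13 of 24 methyltransferases, 7 of 11 CHD genes and 5 of 11 other SMARC and ARID genes. Among protein-coding genes with an annotated start, 5526 of 15842 had a peak under their name. The list gives values only for called peaks, so it does not tell whether these mRNAs were at low levels in the cells or were recovered equally in RIP and input. A symbol was given to 6551 of the 8478 identifiers, so peaks of such a gene may also stand under an identifier left without a name.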

How the data were processed

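PRMT5 RIP and input RNA of PHA-stimulated Jurkat cells were sequenced as 2 libraries each with a strand-specific kit, per the labels. The submitters' processing notes name fastp, HISAT2 and hg38; the peak caller and its threshold, the annotation and the way in which the 4 libraries were pooled are not given in the sources used here. The authors deposited 1 list with RPM values per peak for RIP and for input. The log2 fold change, p-value and FDR (a q-value) in the deposited list are the peak caller's comparison of RIP with input. The log2 values served only as an alternative and the FDR only as a filter. A mock or IgG immunoprecipitation was not analysed here.

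Peaks went to their first-listed identifier. Symbols came from the study's supplementary table of peaks (13 members; 1989 of its rows with a symbol were used) or from the RefSeq gene of GRCh38.p14 touched on the same strand (47 members); 5 members (ARID3A, CHD6, HDAC5, SMARCC1 and SMARCC2) had no start in the RefSeq table, which gives strands, and took the strand of their peaks. Overlapping and antisense genes are uncertain in this matching. Where a gene had several annotated starts, each peak was measured from the nearest. The gene value is the median over peaks of log2((RIP RPM + 0.01)/(input RPM + 0.01)). With 1 pooled value per group there was no spread, no interval and no test; members were described by counts and medians beside those of all genes. The scripts were tested on simulated peaks with more input reads than most member peaks had, so the low-read range was not covered. Alternatives covered the pseudocount, input, width and FDR filters, opposite-strand overlaps, summed RPM, the caller's log2 fold change and every listed identifier.

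The members and lists were chosen with earlier results of these data known. Values were given by a rule for the highest and lowest genes of each main role, for genes with most input reads, for genes with 4 or more peaks and for paralog pairs; all other members are given for completeness. Python 3.11.15, pandas 2.3.3, numpy 2.4.6, scipy 1.17.1 and matplotlib 3.10.9 were used.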

Additional observations from a re-analysis of the deposited data

How the results depend on the processing

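No paired analysis was possible because the list gives 1 pooled value per group; for the same reason no library could be left out. Medians below are for all members, SWI/SNF, demethylases, methyltransferases and deacetylases, in this order, on the log2 scale. With 0.1 RPM added they were 0.89, 0.95, 1.03, 0.94 and 0.75, and with 1 RPM 0.33, 0.75, 0.36, 0.38 and 0.21. At least 2-fold were then 22 and 6 genes, since a larger added value pulls low-read genes towards 0. The 2-fold share of all listed genes was not counted for these added values or for the input filter that follows. A fall in the count is thus not a result about the members. With peaks of at least 0.5 RPM in input, 32 genes and 63 peaks were left, 14 genes were at least 2-fold, 7 of 17 had the 5′ peak higher, so that the majority turned (71.7% of all genes had it higher under this filter), and the medians were 0.94, 1.18, 1.24, 0.58 and 0.72. With peaks of at least 50 nt they were 1.26, 1.36, 1.78, 1.56 and 0.73, and by the peak caller's log2 fold change 2.07, 1.98, 2.50, 2.21 and 1.92. Summed RPM moved SWI/SNF to 1.14, demethylases to 1.59 and deacetylases to 0.87. An FDR at or below 0.01 moved all members to 1.24 and SWI/SNF to 1.18. Chosen after seeing the data, peaks with 1 identifier gave 1.24 for all members and 0.94 for deacetylases, and peaks outside the first 500 nt after a start gave 1.17, 1.03, 1.47, 1.31 and 0.96. Leaving out opposite-strand overlaps, or using every listed identifier, moved no median by more than its rounding. The cause of these shifts was not tested, except that an added value or a filter acts on low-read peaks by construction. No median changed sign. The 2-fold count stayed within 1.5 times of 40 in 8 of 11 alternatives. Depth is unknown, and values from input under 0.1 RPM rest on the fewest reads.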
